A study of Mus musculus with 12 samples.

Results

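Smooth muscle contractile genes were followed in mouse lungs with and without Nrf2, the transcription factor encoded by Nfe2l2 that switches on antioxidant genes. The members are Cnn1, Acta2, Tagln, Myh11, Des, Actg2 and Smtn, taken as every probe set that the platform annotation assigns to these 7 gene symbols. They are 7 of the 12394 genes that have a probe set of their own on the array, and they hold 10 of the 22690 probe sets of this Affymetrix mouse array. No probe set assigned to several genes includes one of them. Total lung RNA was hybridised to 12 arrays, 3 in each of 4 groups. KO HVT lungs came from Nrf2-deficient CD-1/ICR mice ventilated mechanically for 2 h at a high tidal volume of 30 ml/kg, and KO SpV lungs from mice of the same genotype that breathed spontaneously (SpV) for 2 h. WT HVT and WT SpV lungs came from Nrf2 wild-type CD-1/ICR mice treated in the same ways. RNA came from the left lobe on every array except WT SpV array 1, which is labelled whole lung. The labels do not say whether arrays are separate animals, how the Nrf2 deficiency was made, or the age and sex of the mice, so p-values measure the spread between these arrays, which may be technical. Arrays are numbered as in the labels.

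Smooth muscle of airways and vessels shortens when myosin heads pull on actin filaments, and its force sets airway and vascular tone. Acta2 and Actg2 encode the smooth muscle alpha and gamma actins of the thin filament, and Myh11 encodes the heavy chain of smooth muscle myosin. Cnn1 encodes calponin, which binds actin and restrains the myosin ATPase, Tagln encodes transgelin (SM22 alpha), an actin-bundling relative of calponin, and Smtn encodes smoothelin, a protein of contractile smooth muscle that associates with actin. Des encodes desmin, the intermediate filament of smooth, heart and skeletal muscle. Most of these genes are classical targets of serum response factor (SRF) and its coactivator myocardin, which act through CArG boxes.

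Values are normalized signals, for which each array was scaled to a trimmed mean of 500 and the arrays were then quantile normalized. The deposited signals were not on one scale, with trimmed means of 182 to 247 in KO HVT, 73.9 to 469 in KO SpV, 279 to 439 in WT HVT and 316 to 423 in WT SpV lungs. KO SpV array 1, the dimmest at 73.9, had by far more signal at the 3' than at the 5' end of beta-actin, a ratio of 8.76 that lay between 1.39 and 3.1 on the others. Without any scaling the median probe set differed by -0.63 (log2) between KO and WT lungs averaged over breathing, so a direction between genotypes is relative to the other genes on the array. KO HVT array 2 stood apart in another way: it carried skeletal muscle transcripts, with a signal of 15456.3 for the skeletal actin Acta1 against at most 355 on any other array. Nfe2l2 lay between 36.2 and 61.3 on the 6 KO arrays and between 2144.3 and 3298.2 on the 6 WT arrays. The surfactant gene Sftpc of alveolar epithelium, between 12126.4 and 26277 on the 12 arrays, marked all of them as lung. Of 13 epithelial markers 1 fell and 0 rose between genotypes averaged over breathing. Without KO SpV array 1, 2 fell, and without KO HVT array 2, 0 did. In the average over all arrays their log2 differences ran from -1.36 to 0.46 with a median of 0.06, and 7 of 13 were higher in KO lungs. Of all probe sets 3.29% were called in that average, 5.41% without KO SpV array 1 and 2.06% without KO HVT array 2.

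Of the 10 member probe sets, 8 reached a signal of 100 on at least 3 arrays and entered the tests. These represent all 7 genes, and each gene is described by its brightest probe set. Signals of different probe sets are not compared with each other, since each has its own binding efficiency. In bulk lung RNA, fewer cells of a type and less RNA per cell cannot be told apart.

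The promoters of Cnn1, the member whose difference passed the test at rest, and of Acta2, a well studied SRF target, are shown side by side and were searched for CArG boxes. Promoter windows from RefSeq on GRCm38.p6, running from 250 bases before the gene start to 50 bases after it, were matched for 4 of the 7 members (Cnn1, Acta2, Des and Smtn). The Cnn1 window is chr9:22099003-22099302 on the plus strand and the Acta2 window is chr19:34255324-34255623 on the minus strand. Capitals mark a CArG box with up to 1 substitution in its core.
Cnn1: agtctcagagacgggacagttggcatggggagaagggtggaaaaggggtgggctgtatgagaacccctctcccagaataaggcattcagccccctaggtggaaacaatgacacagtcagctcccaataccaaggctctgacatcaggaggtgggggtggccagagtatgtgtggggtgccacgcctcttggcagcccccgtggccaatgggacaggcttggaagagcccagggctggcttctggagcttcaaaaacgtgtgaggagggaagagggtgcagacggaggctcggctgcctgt
Acta2: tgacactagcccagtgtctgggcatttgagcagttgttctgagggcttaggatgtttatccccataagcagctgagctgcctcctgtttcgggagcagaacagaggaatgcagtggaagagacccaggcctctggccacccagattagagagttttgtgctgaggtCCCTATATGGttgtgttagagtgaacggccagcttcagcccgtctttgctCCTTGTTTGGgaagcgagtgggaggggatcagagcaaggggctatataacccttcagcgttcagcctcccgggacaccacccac
The Acta2 window held 2 such boxes, CCCTATATGG from base -84 to base -75 and CCTTGTTTGG from base -34 to base -25 relative to the start, each with 1 substitution in the 6-base core. The other 3 windows held 0, and sequence outside the windows, introns included, was not searched. A window with at least 1 such box was found for 9.98% of the 32851 promoters in the table, and an exact CArG box for 1.63%, with 0 among the 4 members. The box reads the same on both strands. The antioxidant response element core TGACNNNGC, searched on both strands, occurred in 12.4% of all promoters and among the 4 members only in Des, as GCTCCGTCA from base 33 to base 41, counting the first base of the gene as 1. None of the 7 genes lies on chromosome 2, which carries Nfe2l2 in the RefSeq annotation.

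**Figure D1:**
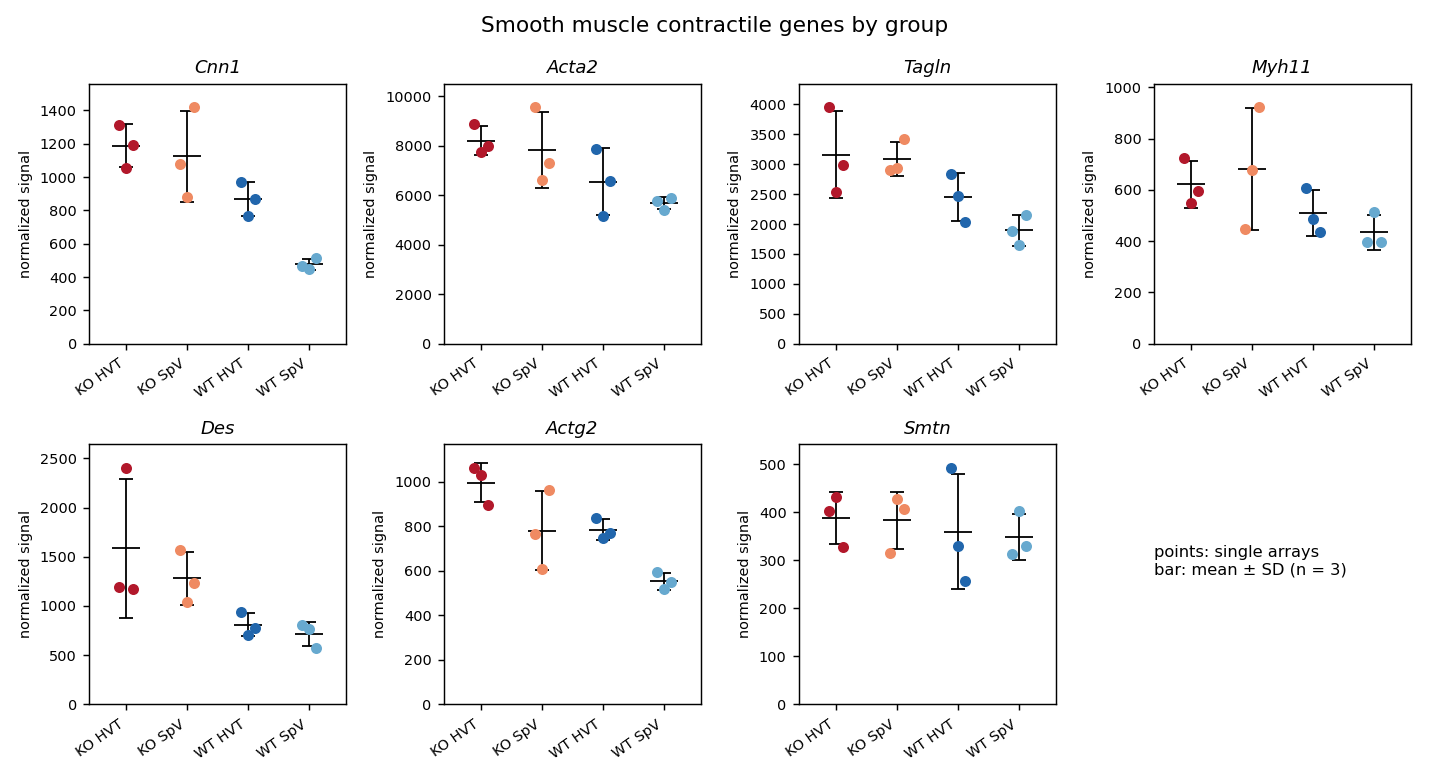
Normalized signal (y axis, linear, from 0) of the brightest probe set of each of the 7 genes in KO HVT, KO SpV, WT HVT and WT SpV lungs, with a point per array and the mean ± SD of 3 arrays. Cnn1 lies between 450.7 and 513.5 on the WT SpV arrays and between 769.1 and 1418.9 on the other 9, while the Smtn groups overlap throughout.

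Among spontaneously breathing lungs, Cnn1 was higher without Nrf2, and the other 6 genes did not pass the test. Cnn1 had signals of 1076.9, 880.8 and 1418.9 on KO SpV arrays 1, 2 and 3, against 467.1, 450.7 and 513.5 on WT SpV arrays 1, 2 and 3. All KO arrays lay above all WT arrays, with means of 1125.5 ± 272.3 and 477.1 ± 32.6 (SD, n = 3 each). The log2 difference was 1.19 ± 0.18 (SE), or 2.28-fold, with a limma adjusted p of 0.013 over 15812 probe sets. Cnn1 was the 1 of the 7 genes called at an adjusted p under 0.05, where 0.24% of all probe sets were called higher and 0.506% in either direction. The call was lost without KO SpV array 3 (1.01, adjusted p = 0.0617), WT SpV array 1 (1.17, adjusted p = 0.065) or WT SpV array 2 (1.15, adjusted p = 0.0635), and on the deposited values without scaling (0.66, adjusted p = 0.855, with the median probe set at -0.48).

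The other filament genes had smaller values in the same comparison, none of which passed the test. Tagln had 2905.7, 2934.8 and 3420.8 in KO SpV lungs, against 1888.7, 1644.6 and 2157 in WT SpV lungs, a log2 difference of 0.70 ± 0.19 (limma adjusted p = 0.129). Des had 1566, 1041 and 1234 in KO SpV lungs, against 808.9, 766.4 and 575.4 in WT SpV lungs, a log2 difference of 0.82 ± 0.27 (adjusted p = 0.232). The arrays of the genotypes did not overlap for either gene. Acta2 had 9551.7, 6593 and 7306.2 in KO SpV lungs, against 5750.5, 5411 and 5869.1 in WT SpV lungs, and a log2 difference of 0.44 ± 0.16 (adjusted p = 0.285). Actg2, the actin best known from gut smooth muscle, had 765.9, 609.3 and 962.6 in KO SpV lungs, against 594.5, 519.1 and 548.2 in WT SpV lungs, and a log2 difference of 0.46 ± 0.17 (adjusted p = 0.293). Both actins were also higher on every KO array than on every WT array, although Actg2 only narrowly so on KO SpV array 2. Myh11 had 447.6, 677.8 and 922 in KO SpV lungs, against 396.6, 512.8 and 394.7 in WT SpV lungs, a log2 difference of 0.58 ± 0.24 (adjusted p = 0.337). Its groups overlapped, because KO SpV array 1, the dim array, lay among the WT values. Without that array Myh11 had a difference of 0.85 (adjusted p = 0.0557).

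Counted together at rest, 7 of 7 genes had higher means in KO lungs, with a median log2 difference of 0.58, against -0.02 for all probe sets, of which 47.6% were higher. The arrays of the genotypes were apart for 5 of the 7 genes, an arrangement that 8.47% of all probe sets showed in this direction, and 6 of 7 had an unadjusted p under 0.05 with a higher mean, against 6.27% of all probe sets. Smtn was the exception, at 316.1, 427.8 and 406.4 in KO SpV lungs, against 313.7, 403.2 and 329.1 in WT SpV lungs. Its log2 difference of 0.13 ± 0.23 has a 95% interval of -0.37 to 0.63. On the deposited values without scaling the median over the 7 genes was 0.11 against -0.48 for all probe sets, and 5 of 7 were higher. With a weight for each array, estimated by a fit that stopped before converging, limma called 10.9% of all probe sets at rest and 5 of the 7 genes, Myh11 (1, adjusted p = 0.00343), Tagln (0.73, adjusted p = 0.00956), Des (0.8, adjusted p = 0.0252) and Actg2 (0.61, adjusted p = 0.026) besides Cnn1 (1.34, adjusted p = 0.000409).

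**Figure D2:**
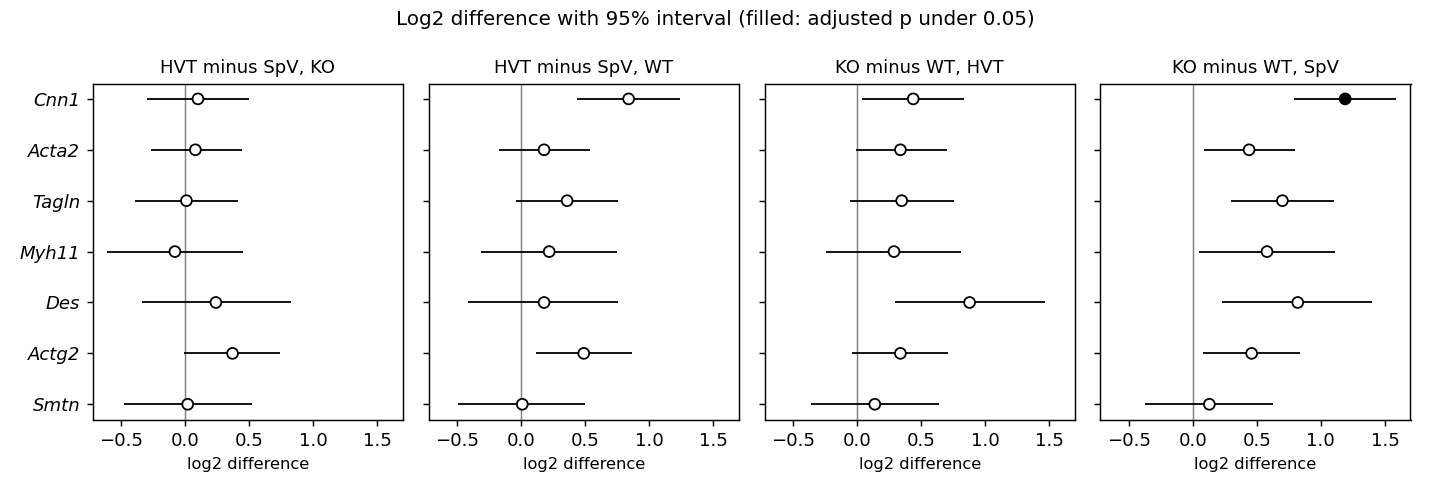
Log2 differences (x axis) of the 7 genes (rows) for ventilation within KO and within WT lungs and for genotype within HVT and within SpV lungs, with 95% intervals from limma and n = 3 arrays per group. The 1 filled point, Cnn1 between genotypes at rest, passed an adjusted p of 0.05, and the intervals for ventilation in KO lungs all include 0.

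In ventilated lungs the 7 genes again had higher means without Nrf2, and none passed the test. Des had 1187.9, 2401.7 and 1170.2 on KO HVT arrays 1, 2 and 3, against 939.6, 709.3 and 779.9 on WT HVT arrays 1, 2 and 3. The high value is that of the array carrying skeletal muscle transcripts. The log2 difference of Des was 0.88 ± 0.27 (limma adjusted p = 0.195) and 0.54 (adjusted p = 0.417) without that array. Cnn1 had 1313.7, 1054.3 and 1193.7 in KO HVT lungs, against 973.3, 769.1 and 871.1 in WT HVT lungs, a log2 difference of 0.44 ± 0.18 (adjusted p = 0.353). Actg2 had 1061.5, 1031.5 and 896.4 in KO HVT lungs, against 838.6, 745.4 and 771.4 in WT HVT lungs, a log2 difference of 0.34 ± 0.17 (adjusted p = 0.456). For these 3 of the 7 genes every KO array lay above every WT array, as it did for 11.3% of all probe sets.

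The remaining 4 genes overlapped between genotypes under ventilation. Acta2 had 8859.2, 7739.9 and 7979.3 in KO HVT lungs, against 7881.2, 5164.2 and 6570.5 in WT HVT lungs (0.34 ± 0.16, adjusted p = 0.423). Tagln had 3951.9, 2529.3 and 2990 in KO HVT lungs, against 2833.1, 2471.4 and 2036.1 in WT HVT lungs (0.35 ± 0.19, adjusted p = 0.461). Myh11 and Smtn had log2 differences of 0.29 ± 0.24 and 0.14 ± 0.23. On the skeletal muscle array Acta2 and Tagln had the lowest signals of their KO HVT group, so neither followed Acta1 there. The median over the 7 genes was 0.34 against 0 for all probe sets to 2 decimals, with 7 of 7 higher, 0 called by limma (0.278% of all probe sets called higher and 0.658% in either direction) and 2 of 7 at an unadjusted p under 0.05 (5.82% of all probe sets, higher). Without scaling each of the 7 differences was below 0, from -0.01 for Des to -0.63 for Smtn, against -0.8 for the median probe set.

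Averaged over both kinds of breathing, Cnn1, Des and Tagln rose without Nrf2. Cnn1 had a log2 difference of 0.81 ± 0.13 (limma adjusted p = 0.00694), Des 0.85 ± 0.19 (adjusted p = 0.0316) and Tagln 0.53 ± 0.13 (adjusted p = 0.0484). For Des each of the 6 KO arrays (1041 to 2401.7) lay above each of the 6 WT arrays (575.4 to 939.6), as for 1.14% of all probe sets. Cnn1 overlapped only in that KO SpV array 2 (880.8) lay below WT HVT array 1 (973.3). These are 3 of 7 genes called, against 1.43% of all probe sets called higher and 3.29% in either direction. Acta2 had 0.39 ± 0.12 (adjusted p = 0.0862), Actg2 0.40 ± 0.12 (adjusted p = 0.0986), Myh11 0.43 ± 0.17 (adjusted p = 0.19) and Smtn 0.13 ± 0.16 (adjusted p = 0.696).

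The firmness of the 3 averaged calls differed. Cnn1 kept its call in 12 of 12 fits that left out 1 array, between 0.72 and 0.89. Des kept it in 6 of 12, losing it without KO SpV array 3, WT HVT array 2 or 3, or WT SpV array 1, 2 or 3, at 0.78 to 0.90 (adjusted p up to 0.0921). Without the skeletal muscle array the Des value was 0.68 (adjusted p = 0.0417), and without the dim KO SpV array 1 it was 0.77 (adjusted p = 0.0322). Tagln kept its call in only 2 of 12, those without KO HVT array 2 (0.60) and without KO SpV array 1 (0.55), and lost it in the other 10, from 0.44 without KO HVT array 1 to 0.58 without WT HVT array 1 or WT SpV array 3. It also lost it after scaling without quantile normalization (0.51, adjusted p = 0.0566). Without KO SpV array 1, Myh11 was called as well (0.57, limma adjusted p = 0.0329), where 5.41% of all probe sets were called. On the deposited values without scaling no gene was called, with Cnn1 at 0.09, Des at 0.13 and Tagln at -0.18 against -0.63 for the median probe set.

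Ventilation of wild-type lungs for 2 h went with higher Cnn1 and Actg2 signals that did not pass the test over all probe sets. Cnn1 had the 973.3, 769.1 and 871.1 given above in WT HVT lungs, against 467.1, 450.7 and 513.5 in WT SpV lungs. This is a log2 difference of 0.84 ± 0.18 with an unadjusted limma p of 0.000593 and an adjusted p of 0.212, rank 42 of 15812 by p. Without KO SpV array 1, which enters the shared error estimate, the adjusted p was 0.07. Actg2 had 838.6, 745.4 and 771.4 in WT HVT lungs, against 594.5, 519.1 and 548.2 in WT SpV lungs, a log2 difference of 0.49 ± 0.17 (adjusted p = 0.494). In both genes the ventilated arrays lay above all controls, as they did in this direction for 8.42% of all probe sets. Tagln (0.36 ± 0.19), Myh11 (0.22 ± 0.24), Acta2 (0.18 ± 0.16), Des (0.18 ± 0.27) and Smtn (0.01 ± 0.23) overlapped. Of the 7 genes limma called 0, as against 0.0506% of all probe sets, and 2 had an unadjusted p under 0.05, against 4.49% of all probe sets in the same direction. The median over the 7 was 0.22, against -0.02 for all probe sets.

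In knockout lungs none of the 7 contractile genes passed the limma test for ventilation. Cnn1 averaged 1187.2 ± 129.9 in KO HVT and 1125.5 ± 272.3 in KO SpV lungs, and its log2 difference of 0.10 ± 0.18 has a 95% interval of -0.30 to 0.50. Tagln averaged 3157.1 ± 725.8 in KO HVT and 3087.1 ± 289.3 in KO SpV lungs (0.01 ± 0.19). Actg2 had the largest value of the 7, at 996.4 ± 87.9 in KO HVT and 779.3 ± 177 in KO SpV lungs (0.37 ± 0.17, limma adjusted p = 0.458). The median over the 7 genes was 0.08, with 0 called, as for 0% of all probe sets, and 0 with an unadjusted p under 0.05, against 5.35% of all probe sets higher. All 7 genes overlapped between the breathing groups, while 7.42% of all probe sets lay higher on every ventilated array. Without KO SpV array 1 the share of all probe sets called was 6.27%, and still 0 of the 7 genes were called. Averaged over both genotypes, ventilation gave 0.47 ± 0.13 for Cnn1 (adjusted p = 0.165) and 0.43 ± 0.12 for Actg2 (adjusted p = 0.174), and 0 of 7 were called, against 0.126% of all probe sets.

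Whether the response to ventilation differed between genotypes was tested directly as an interaction. Cnn1 had an interaction of -0.75 ± 0.26 on the log2 scale, the smaller response being that of the KO lungs, with an unadjusted p of 0.014 and a limma adjusted p of 0.982. Its 95% interval runs from -1.31 to -0.18. The other 6 genes had values from -0.35 for Tagln to 0.06 for Des, with unadjusted p from 0.207 to 0.969. Limma called 0 of the 7 genes and 0% of all probe sets, of which 5.03% had an unadjusted p under 0.05. The WT SpV group held the lowest mean for each of the 7 genes, and the KO HVT group the highest for 6, Myh11 being higher in KO SpV lungs. Neighbouring groups in that order mostly lay within their spread: for Cnn1 the order was KO HVT (1187.2), KO SpV (1125.5), WT HVT (871.2) and WT SpV (477.1), and only WT SpV was apart from all other arrays. For Actg2 the middle groups, WT HVT at 785.1 ± 48.1 and KO SpV at 779.3 ± 177, were level.

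The less bright probe sets of Acta2, Myh11 and Des gave little. The second Acta2 probe set (1456658_at) lay between 4.2 and 46.4 and never reached 100, so it was not tested, while the first (1416454_s_at) carries a suffix for probes that can also bind related transcripts. The second Myh11 probe set (1418122_at) reached 100 on 1 array and was not tested either. It had 40.8, 7.2 and 46.6 on the WT SpV arrays and 52.4 to 117.2 on the other 9. The second Des probe set (1426732_at) passed, at 73.4 to 249.9. Its log2 difference between genotypes was -0.01 ± 0.31 averaged over breathing (95% interval -0.69 to 0.67). It thus did not repeat the difference of the brighter one (0.85, 95% interval 0.44 to 1.26), although the 2 intervals overlap. The second Des probe set did not rise on KO HVT array 2 either, where it had 74.7.

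Markers of other muscle moved with genotype as well. All 22 listed heart muscle markers were measured, and their summed signal ran from 84661 to 126955 in KO HVT, 65703 to 79578 in KO SpV, 36922 to 60944 in WT HVT and 38287 to 57110 in WT SpV lungs. In the genotype average 14 of 22 rose and 0 fell, at a median of 0.86, among them the cardiac myosin-binding protein Mybpc3 (1.45 ± 0.17, limma adjusted p = 0.000747), the muscle LIM protein Csrp3 (1.12 ± 0.17, adjusted p = 0.00428), cardiac troponin T, Tnnt2 (0.99 ± 0.15, adjusted p = 0.00471), and the cardiac myosin heavy chain Myh6 (0.78 ± 0.12, adjusted p = 0.005). Of all probe sets 1.43% were called higher in that average. Without KO HVT array 2, 7 of 22 rose, and without KO SpV array 1, 16 of 22. Those fits called 2.06% and 5.41% of all probe sets in either direction, in that order. Under ventilation 9 of 22 rose in KO against WT lungs and at rest 1 did. Of all probe sets 0.278% were called higher under ventilation and 0.24% at rest. No heart marker was at 0 on any array. Heart muscle expresses desmin and is found in the walls of the pulmonary veins of mice as well as in the heart. The part of heart muscle RNA in the Des result was not tested.

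The summed signal of the skeletal muscle markers was by far highest on 1 array. The summed signal of the 21 listed genes was 107226 on KO HVT array 2, against 2930 to 3141 on the other KO HVT arrays, 2743 to 2904 in KO SpV, 1520 to 2211 in WT HVT and 1430 to 2275 in WT SpV lungs. Only 8 of the 21 reached the signal minimum on 3 arrays. The fast skeletal myosin chain Myh1 had 18367.7 there and at most 62.2 elsewhere, and troponin C of fast muscle, Tnnc2, had 12179.1 there and at most 12.8 elsewhere. Of these 8 genes 0 were called in any comparison, where 0% to 3.29% of all probe sets were called in either direction. Without that array 7 of 8 had a higher mean in KO lungs in the genotype average. Their median was 0.63, against 0 for all probe sets to 2 decimals. In that fit 1 was called, the calcium pump Atp2a1, along with 2.06% of all probe sets. The summed signal of the 7 contractile genes was 15736 on that array, between the 17501 and 15154 of KO HVT arrays 1 and 3.

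**Figure D3:**
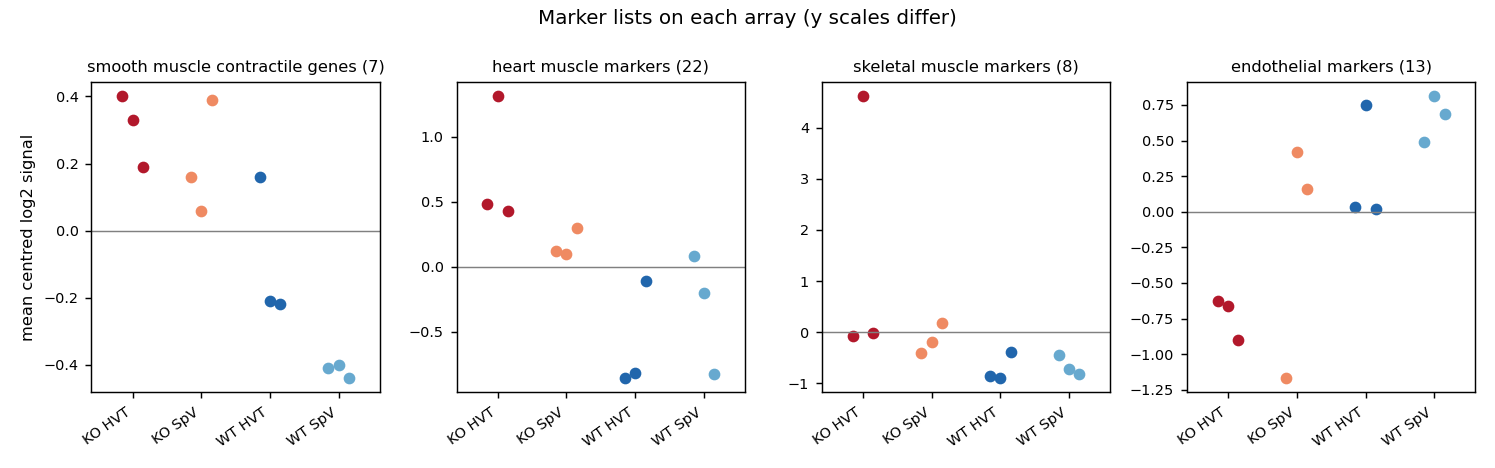
Mean log2 signal of 4 gene lists on each array, each gene centred on its mean over the 12 arrays (y axis, log2, scales differ between panels), for the 7 contractile genes and the heart, skeletal muscle and endothelial markers measured. KO HVT array 2 reaches 4.61 for skeletal muscle, and the WT SpV arrays are lowest for the contractile genes, at -0.44 to -0.40.

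Markers of cells that neighbour smooth muscle were examined in the same way. In the genotype average 3.29% of all probe sets were called in either direction. Of 13 endothelial markers 6 fell in the genotype average and 0 rose, at a median of -0.85, including the junction genes Cdh5 (-1.96 ± 0.37, limma adjusted p = 0.016) and Cldn5 (-0.80 ± 0.17, adjusted p = 0.0266). Their summed signal was 14037 to 16142 in KO HVT, 13337 to 31741 in KO SpV, 24049 to 39287 in WT HVT and 33805 to 41934 in WT SpV lungs. Of the 9 pericyte markers measured 1 fell, Higd1b (-1.19 ± 0.22, adjusted p = 0.0148), and 0 rose. Of 15 fibroblast and mesothelial markers 0 passed, and those with the smallest p were the matrix genes Npnt (-1.62 ± 0.42, adjusted p = 0.0563) and Postn (-0.50 ± 0.14, adjusted p = 0.0785). Their summed signals were 4781 to 6717 for pericytes and 24395 to 29080 for fibroblasts and mesothelium in KO HVT lungs, 5291 to 5889 and 22250 to 36800 in KO SpV, 5755 to 6525 and 23817 to 38247 in WT HVT, and 6827 to 7995 and 41395 to 45460 in WT SpV lungs. KO SpV array 1, the dim array, gave the lowest KO SpV sum for endothelium, where arrays 2 and 3 had 31741 and 25788, and for fibroblasts and mesothelium, where they had 31150 and 36800. Without it 9 of 13 endothelial markers fell, at a median of -0.72, and Npnt was called among the fibroblast and mesothelial markers, while without KO HVT array 2, 3 of 13 endothelial markers fell. Those fits called 5.41% and 2.06% of all probe sets in either direction, in that order. The lowest signal of a marker on any array was 146.6 for endothelium, 37.2 for pericytes and 27.7 for fibroblasts and mesothelium. The part of such shifts in the contractile gene results was not tested. With the beta-actin 3' to 5' ratio as a covariate, Cnn1, Des and Tagln remained called in the genotype average. That fit called 5.8% of all probe sets, against 3.29% without the covariate.

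Other genes of smooth muscle contraction were mixed in direction. The share of all probe sets called in the genotype average, to set beside these lists, was 3.29% in either direction. Of 16 measured filament partners and regulators, 5 had a higher mean in KO lungs in the genotype average, at a median of -0.06, and 1 rose. That was Tpm2, the beta tropomyosin of smooth and skeletal muscle, with 3302.7, 4218.7 and 2972.5 in KO HVT, 4583.3, 2261.3 and 2813.5 in KO SpV, 2340.8, 1748.2 and 1991.1 in WT HVT, and 1681.9, 1510.4 and 1579.2 in WT SpV lungs (0.86 ± 0.16, limma adjusted p = 0.0152). Of 22 adhesion, cytoskeleton and caveolar genes, 8 had a higher mean, at a median of -0.13. Among them Fhl2, a LIM protein of heart and smooth muscle, rose (0.74 ± 0.15, adjusted p = 0.0218), while Csrp1, a LIM protein abundant in smooth muscle, fell (-0.71 ± 0.12, adjusted p = 0.00805), as did Cavin1, a coat protein of caveolae (-0.81 ± 0.17, adjusted p = 0.0252).

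Among 19 measured transcription factors of the smooth muscle programme, 9 had a higher mean and the median was -0.04. Myocd, which encodes myocardin, rose, with 222.8, 258.3 and 388.5 in KO HVT, 275.7, 228.5 and 221 in KO SpV, 221.1, 187.5 and 183.6 in WT HVT, and 149.3, 108.1 and 126.4 in WT SpV lungs (0.67 ± 0.15, limma adjusted p = 0.0379). As for Cnn1, the WT SpV arrays were the lowest of the 12. Myocardin is expressed in heart as well as in smooth muscle. Elk4, a ternary complex factor that also binds SRF, fell (-0.51 ± 0.11, adjusted p = 0.029). Srf itself did not pass after ventilation of wild-type lungs (1.22 ± 0.27, limma adjusted p = 0.212). It had 2057.5, 926.6 and 1458.3 in WT HVT, against 532.2, 591.9 and 662.6 in WT SpV lungs. These groups did not overlap, as was so in this direction for 8.42% of all probe sets.

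Of 15 measured receptors, channels and signalling genes of contraction, 4 had a higher mean in the genotype average, at a median of -0.05. The sarcoplasmic reticulum calcium pump Atp2a2 (0.57 ± 0.13, limma adjusted p = 0.0382) and its inhibitor phospholamban, Pln (0.76 ± 0.18, adjusted p = 0.0408), rose, and both are major genes of heart muscle too. Gucy1b1, a subunit of the nitric oxide receptor that relaxes smooth muscle, fell (-1.48 ± 0.36, adjusted p = 0.0438). In the 4 comparisons of 2 groups, in the interaction and in the ventilation average, limma called 0 members of these 4 lists. Of all probe sets those comparisons called only 0% to 0.658% in either direction. Without KO HVT array 2, the array with skeletal muscle transcripts, Tpm2 and Csrp1 were the only genes of the 4 lists called in the genotype average, and Fhl2, Cavin1, Myocd, Elk4, Atp2a2, Pln and Gucy1b1 did not pass. Without KO SpV array 1 each of these 9 genes was called, and Elk3 as well. That fit called 5.41% of all probe sets, and the fit without KO HVT array 2 called 2.06%. Among genes of the 4 lists the lowest adjusted p in the ventilation average was that of the Notch target Hey1 (-0.80 ± 0.16, limma adjusted p = 0.0813).

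**Figure D4:**
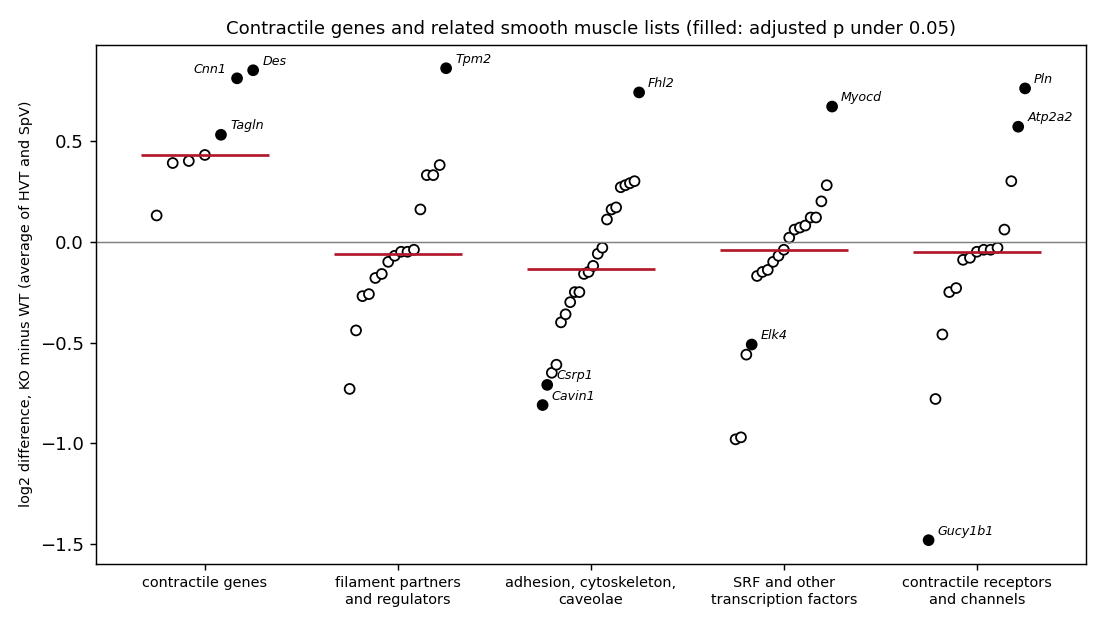
Log2 difference between KO and WT lungs averaged over breathing (y axis) for the 7 contractile genes and 4 related lists of 16, 22, 19 and 15 measured genes, each point a gene and each red line a median. The contractile genes have a median of 0.43 and the other lists medians of -0.06, -0.13, -0.04 and -0.05, with named genes called at an adjusted p under 0.05.

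The 7 genes varied together unevenly. Over the 12 arrays, which fall into 4 groups, Pearson's r between pairs of the 7 ranged from 0.22 to 0.90 with a median of 0.66, and r was highest between Cnn1 and Actg2. About the group means it ranged from -0.48, between Tagln and Des, to 0.81, again between Cnn1 and Actg2, with a median of 0.31. Smtn had the lowest r with the mean of the other 6, at 0.40, against 0.68 to 0.90 for the rest. The probe sets whose signals were most like the mean of the 7 over the 12 arrays, of 15804 compared, were those of the mitochondrial methionine aminopeptidase Metap1d (r = 0.969), the microtubule-associated Eml3 (0.92), the adaptor Traf3ip2 (0.898), a probe set with no gene in the annotation used (0.897), the ciliary gene Ttc8 (0.891) and the receptor phosphatase Ptpru (0.891). Metap1d averaged 273 in KO HVT, 237.1 in KO SpV, 149.7 in WT HVT and 70.6 in WT SpV lungs, and lies on chromosome 2 with Nfe2l2. None of these 6 belongs to the smooth muscle lists, of which Myl9, the regulatory light chain of smooth muscle myosin, came at rank 8 (0.886), Fhl2 at rank 21 (0.874), a probe set of the phosphatase subunit Ppp1cb at rank 25 (0.857) and Tpm2 at rank 26 (0.856), named here after their values were seen.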

How the data were processed

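The deposited values are linear signal intensities per probe set, from GCOS version 1.4 per the submitters' processing notes, and how the authors scaled them is not given in the sources used here. From these deposited intensities, each array was scaled to a 2% trimmed mean of 500 and the arrays were quantile normalized. Of 22690 probe sets, 64 controls were left out and 15812 with a signal of 100 or more on at least 3 arrays were tested as log2(signal + 16), so fold changes of dim probe sets are understated. Group means of the 12 arrays were fitted with limma 3.58.1 in R 4.3.3 (lmFit, and eBayes with an intensity trend), giving 7 contrasts with Benjamini-Hochberg adjustment over all 15812 probe sets. An exact permutation test of 3 arrays against 3 cannot go below 0.1.

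Gene names came from the platform annotation, with 20393 probe sets of 1 gene, 691 of several and 1606 of none, and 20364 of the first kind matched a RefSeq gene. Each gene is given by its brightest probe set. The members, the 10 gene lists and the tests were chosen with earlier results of these data known. From each list, the genes named are up to 4 called ones with the smallest p in a comparison or, where none was called, the 2 with the smallest p, and the 6 nearest patterns are those with the highest Pearson's r to the mean of the 7 genes. The number and the quality of the arrays limit the precision, with a median SE of 0.241 (log2) between groups and 0.341 for the interaction. Alternatives were other scalings, pseudocounts of 1 and 64, a signal minimum of 200 or none, 1 probe set a gene, no trend, an actin ratio covariate, a replicate block, array weights and leaving out each array. The gene lists without KO SpV array 1 or KO HVT array 2 were added after seeing the data.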

Additional observations from a re-analysis of the deposited data

How the results depend on the processing

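The Cnn1 call at rest was kept under 11 settings and lost on the deposited values without scaling, and the calls named above changed as given there. Tagln in the genotype average also lost its call with equal array medians (0.47, adjusted p = 0.077), with no signal minimum (0.53, adjusted p = 0.0628) and with no intensity trend (0.53, adjusted p = 0.0777). With array weights, whose estimation stopped before converging, the averaged Acta2 (0.33, adjusted p = 0.0173), Actg2 (0.48, adjusted p = 0.0176) and Myh11 (0.7, adjusted p = 0.00332), Cnn1 under ventilation in WT lungs (0.81, adjusted p = 0.0272) and Des between genotypes under ventilation (0.88, adjusted p = 0.0398) were called as well, where 12.4% of all probe sets were called in the genotype average, 2.99% for ventilation in WT lungs and 5.51% between genotypes under ventilation.

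The deviations of same-numbered arrays had r of -0.19 to 0.27, over 0.1 in 4 of 12 pairs. The highest, 0.27, was that of WT HVT with WT SpV lungs for arrays 1 and 2. Pairs of different numbers were not set beside them, so these values cannot decide whether the numbers pair arrays. The labels do not say what a replicate number marks, and the main fit used no pairing. With a replicate block Acta2 was called in the genotype average (0.39, limma adjusted p = 0.0355), where 4.41% of all probe sets were called. With that block the probe sets called were 4 for ventilation in WT lungs and 3 for ventilation averaged.

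The number of probe sets called moved by over 1.5 times as follows, and the cause was not tested. Ventilation averaged had 20, against 10 with equal medians, 5 unscaled, 13 at a pseudocount of 1, 2 with no minimum, 10 with 1 probe set a gene, 2 with no trend, 766 with the actin covariate and 2144 with array weights. Ventilation in KO lungs had 0, against 2 unscaled, 123 with the covariate and 2256 with weights. Ventilation in WT lungs had 8, against 2 unscaled, 3 with no minimum, 3 with no trend, 68 with the covariate and 473 with weights. Genotype under ventilation had 104, against 37 unscaled, 69 with 1 probe set a gene, 213 with the covariate and 872 with weights. Genotype at rest had 80, against 4 unscaled, 31 with 1 probe set a gene, 583 with the covariate and 1726 with weights. The interaction had 0, against 1 unscaled and 351 with weights, and the genotype average 521, against 171 unscaled, 917 with the covariate and 1967 with weights. Leaving out 1 array gave 0 to 978 for ventilation averaged, 0 to 991 in KO and 1 to 49 in WT lungs, 32 to 728 for genotype under ventilation, 28 to 297 at rest, 211 to 855 averaged, and 0 to 102 for the interaction, each highest without KO SpV array 1.

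Of 1330 member values under an alternative, 96 changed sign, and 1 of these, the averaged Tagln value without scaling (-0.18), was of a called difference. Without scaling the averaged genotype values were -0.14 for Acta2, -0.31 for Actg2, -0.23 for Myh11 and -0.48 for Smtn. Under ventilation they were -0.38 for Acta2, -0.57 for Actg2, -0.47 for Cnn1, -0.01 for Des, -0.57 for Myh11, -0.63 for Smtn and -0.54 for Tagln, and at rest -0.05 for Actg2, -0.28 for the second Des probe set and -0.32 for Smtn. Ventilation in KO lungs gave -0.18 for Acta2, -0.24 for Cnn1, -0.07 for Des, -0.3 for Smtn and -0.25 for Tagln, ventilation averaged -0.1 for Myh11 and -0.14 for Smtn, and the interaction -0.3 for Des and -0.32 for Smtn. With array weights the Acta2 interaction was 0.03, ventilation in KO lungs -0.08 for Cnn1, -0.08 for Smtn and -0.06 for Tagln, in WT lungs -0.16 for Smtn, and averaged -0.13 for Myh11 and -0.12 for Smtn. Smtn under ventilation averaged and in WT lungs was -0.01 and -0.05 with the actin covariate, -0.02 and -0.05 after scaling alone, and -0.01 in both and in KO lungs with equal medians, where the interaction was 0 for Smtn and -0.01 for Des. The second Des probe set averaged 0.03 between genotypes after scaling alone.

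Leaving out 1 array, sign changes fell within these ranges. For ventilation in KO lungs they were -0.03 to 0.24 for Acta2, -0.06 to 0.28 for Cnn1, -0.1 to 0.42 for Des, -0.46 to 0.17 for its second probe set, -0.35 to 0.16 for Myh11, -0.11 to 0.13 for Smtn and -0.16 to 0.16 for Tagln. In WT lungs they were -0.16 to 0.63 for the second Des probe set and -0.24 to 0.21 for Smtn, and averaged -0.14 to 0.25 for that probe set, -0.06 to 0.19 for Myh11 and -0.11 to 0.11 for Smtn. The interaction ran from -0.26 to 0.05 for Acta2, -0.28 to 0.04 for Actg2, -0.27 to 0.24 for Des, -0.76 to 0.03 for its second probe set and -0.19 to 0.25 for Smtn. Between genotypes the second Des probe set ran from -0.59 to 0.2 under ventilation, -0.13 to 0.5 at rest and -0.21 to 0.18 averaged, and Smtn from -0.06 to 0.38 under ventilation.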
